A study of Homo sapiens with 6 samples.

Results

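The sympathoadrenal core transcription factors examined here were PHOX2A, HAND1, HAND2, GATA2, GATA3, ISL1, INSM1 and TBX2. They were chosen by name, with earlier results of these data known. All 16 probe sets that the platform annotation assigns to them were taken from the 54675 probe sets of the value table. Where a gene had several, the one with the highest 6-array mean leads. The cells were SK-N-AS, a human neuroblastoma line, and all arrays therefore share 1 cell line. For iCSC, attached cells were kept in 5AdC (5-aza-2'-deoxycytidine, a nucleoside that blocks DNA methylation) at 2.5 uM over 5 days, and spheroids were then grown from them without serum. The Sphere culture grew as spheroids without serum and without drug, and the Monolayer culture grew attached, also without drug. Each culture had 2 expression arrays, and the study set the cultures side by side for their stem cell phenotype.

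Sympathetic neurons and adrenal chromaffin cells arise from neural crest cells that switch on a set of transcription factors and, through them, the enzymes of noradrenaline synthesis. In neuroblastoma, a tumour of this lineage, the same factors bind each other's enhancers and form what is called the core regulatory circuit of the adrenergic state, as opposed to a mesenchymal state that lacks much of it. PHOX2A is a paired-type homeodomain factor that activates the genes of noradrenaline synthesis, HAND1 and HAND2 are basic helix-loop-helix factors, GATA2 and GATA3 are zinc finger factors, ISL1 is a LIM-homeodomain factor, INSM1 is a zinc finger factor of neuroendocrine cells and TBX2 is a T-box factor that mostly represses.

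Levels are log2 GCRMA signals, in which 1 unit is a factor of 2 and values under 5 were treated as background. A gene was tested when its value reached 5 on at least 2 arrays. All 8 factors passed, and so did 12 of their 16 probe sets. HAND1 passed through Sphere, INSM1 and PHOX2A through Sphere and iCSC, and GATA2 through Sphere and Monolayer, so these 4 had to differ from the cultures under the limit. limma tested differences over 10459 genes, and calls were made at 0.05 after Benjamini-Hochberg adjustment. SE is the standard error of a log2 fold change, and levels are mean ± SD (n = 2 per culture). The labels do not say whether the 2 arrays of a culture stem from independent cultures, so p-values reflect array-to-array spread alone, which may be technical. In such bulk RNA, fewer cells that express a gene and less RNA per cell cannot be told apart.

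Arrays of the same culture correlated at 0.984 to 0.996 over the tested genes, against 0.729 to 0.859 between cultures. The ACTB control probe sets differed between the 3' and 5' ends of the transcript by 1.40 to 1.47 (log2) on iCSC arrays, 1.21 to 1.22 on Sphere arrays and 1.16 to 1.25 on Monolayer arrays. The part of RNA integrity in the differences below was not tested. As for the identity of the line, TH, the first enzyme of catecholamine synthesis, was above background in iCSC and Sphere but at 2.38 ± 0.07 in Monolayer, and DBH, which makes noradrenaline, stayed under 5 on all 6 arrays.

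The 8 factors took 5 courses across the cultures. HAND1, GATA3 and, in a smaller range, HAND2 were higher in Sphere than in Monolayer and lower in iCSC than in Sphere, with no call between iCSC and Monolayer. PHOX2A stood highest in Sphere, lowest in Monolayer and between them in iCSC, and all 3 differences were called. ISL1 was highest in Sphere too, but was lower in iCSC than in Monolayer. INSM1 and TBX2 were higher in both spheroid cultures than in Monolayer, with no call between iCSC and Sphere. GATA2 was lower in iCSC than in either other culture.

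Against Monolayer, Sphere had 7 of the 8 factors called higher, none called lower and 1 not called. Over all tested genes 59.0% were called in this comparison, 30.0% higher and 29.1% lower. The median log2 fold change of the 8 was 2.81, also with values under 5 set to 5, against 0.01 over all tested genes. Both Sphere arrays lay above both Monolayer arrays for these 7 and below them for none, where over all genes 42.4% lay above and 41.7% below. Against Sphere, iCSC had 6 of the 8 called lower, none higher and 2 not called, where 38.5% of all genes were called, 19.3% higher and 19.2% lower. The median of the 8 was -2.06, or -1.75 with values under 5 set to 5, against 0.01 over all genes. Both iCSC arrays lay below both Sphere arrays for these 6 and above them for none, where over all genes 33.8% lay below and 35.6% above. The 2 comparisons share the Sphere arrays, so a high Sphere value enters both with opposite sign. In iCSC against Monolayer, 3 of the 8 were called higher, 2 lower and 3 not called, where 55.6% of all genes were called, 29.0% higher and 26.6% lower. Their median was 0.13, or 0.12 with values under 5 set to 5, against 0.02 over all genes. Both iCSC arrays lay above both Monolayer arrays for 4 factors and below them for 2, where 41.2% of all genes lay above and 38.6% below. When all 18059 probe sets past the filter were tested in place of genes, 34.5% were called in iCSC against Sphere, 54.2% in iCSC against Monolayer and 57.0% in Sphere against Monolayer.

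**Figure D1:**
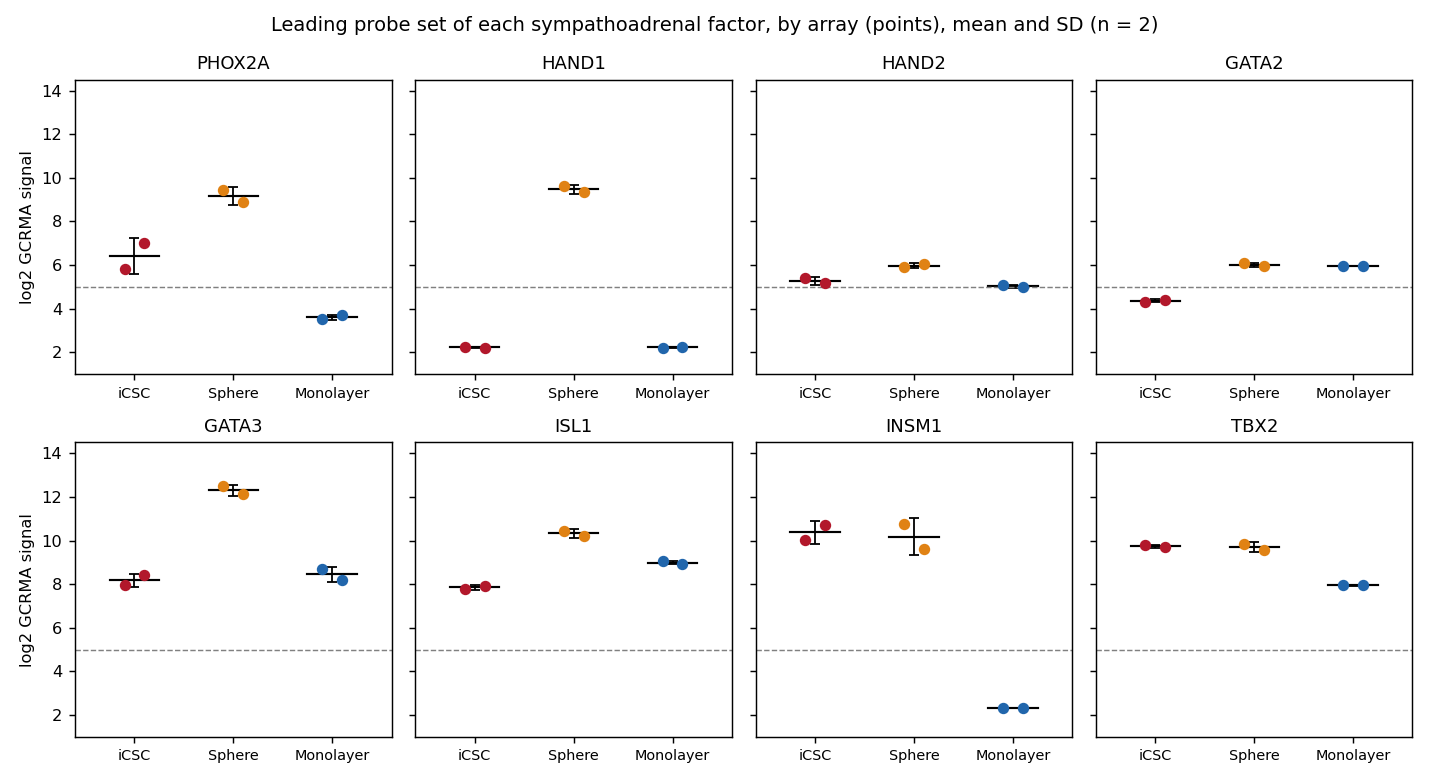
Log2 GCRMA signal of the leading probe set of each factor in the iCSC, Sphere and Monolayer cultures. Points are arrays, bars the mean and SD of 2 arrays, and the dashed line is the limit of 5 taken as background. HAND1 stands at 9.63 and 9.34 in Sphere and near 2.2 in both other cultures, while INSM1 and TBX2 stand high in iCSC and Sphere.

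The promoters of 3 factors with called differences in Sphere against Monolayer and in iCSC against Sphere are shown. PHOX2A and HAND2 were also called in both comparisons, and their promoters are not printed. CpG sites are in capitals because 5AdC blocks methylation there. Methylation was not measured here, and its part in the differences was not tested. Each is the 250 bases before the gene's start as RefSeq annotates it on GRCh38.p14, 5′ to 3′ on the gene's strand. For a gene with several starts this is the window at the outermost one. Other starts were not read, and which start gave the RNA measured here was not tested. HAND1 lies at chr5:154478228-154478477 on the minus strand, GATA3 at chr10:8045083-8045332 on the plus strand and ISL1 at chr5:51383198-51383447 on the plus strand.
HAND1: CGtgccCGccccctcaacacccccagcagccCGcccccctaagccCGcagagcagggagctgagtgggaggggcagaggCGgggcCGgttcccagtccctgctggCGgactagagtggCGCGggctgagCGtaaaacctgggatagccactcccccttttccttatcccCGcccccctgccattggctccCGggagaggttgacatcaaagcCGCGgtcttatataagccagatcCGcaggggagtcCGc
GATA3: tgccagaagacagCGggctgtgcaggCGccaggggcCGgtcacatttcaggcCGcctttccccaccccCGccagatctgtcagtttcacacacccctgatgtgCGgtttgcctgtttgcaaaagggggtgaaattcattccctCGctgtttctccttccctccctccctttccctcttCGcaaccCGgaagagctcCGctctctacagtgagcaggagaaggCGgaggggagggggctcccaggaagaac
ISL1: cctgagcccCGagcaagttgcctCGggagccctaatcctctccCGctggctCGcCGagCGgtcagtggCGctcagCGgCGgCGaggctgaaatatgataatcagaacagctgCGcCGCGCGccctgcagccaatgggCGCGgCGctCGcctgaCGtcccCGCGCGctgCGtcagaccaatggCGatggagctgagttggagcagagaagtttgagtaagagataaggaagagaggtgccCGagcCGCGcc
They hold 16, 11 and 27 CpG sites. RefSeq promoters matched 6 of the 8 factors, the others being PHOX2A with 26 CpG sites, GATA2 with 24 and HAND2 with 13, and the median over 35116 promoters was 11.

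Sites resembling those of the circuit's own factors were searched on both strands of these 250 bases. GATAA, the core read by GATA factors, occurred 3 times in HAND2, 2 times in ISL1 and 1 time in HAND1, and 20.4% of all promoters held it. CANNTG, the E-box read by helix-loop-helix factors, occurred 1 time each in HAND2 and ISL1, where 61.8% of all promoters held it. TAATTA, a homeodomain core, occurred 1 time, in HAND2, and 4.35% of all promoters held it. GGTGTGA, a T-box core, was in none of the 6, and 2.76% of all promoters held it. These are descriptions of the letters in the window.

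PHOX2A, the homeodomain factor that drives TH and DBH, read 5.83 and 7.01 in iCSC, 9.45 and 8.87 in Sphere, and 3.53 and 3.69 in Monolayer. The 3 cultures did not overlap, and the iCSC arrays lay farther apart than those of the other cultures. Sphere was at least 17.9-fold above Monolayer (limma, adjusted p = 5.42e-05). iCSC was 6.68-fold below Sphere (log2 -2.74 ± 0.40, adjusted p = 0.00256) and exceeded Monolayer by at least 2.68-fold (adjusted p = 0.00137). Without iCSC replicate 1 the log2 difference from Sphere was -2.15 and the bound against Monolayer 4.03-fold, and without iCSC replicate 2 they were -3.33 and 1.78-fold. The call against Sphere was lost without variance moderation (adjusted p = 0.0595, range over 17 alternatives 9.27e-04 to 0.0595).

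A fold written as "at least" was computed with every value under 5 set to 5, because all arrays of the lower culture lay under that limit. The p beside it tests the deposited values. PHOX2A has 1 probe set on this platform, so its course could not be checked against another.

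HAND1, known from heart, placenta and sympathetic ganglia and with 16 CpG sites in the promoter printed here, was called in Sphere against both other cultures. It read 2.25 and 2.22 in iCSC, 9.63 and 9.34 in Sphere, and 2.22 and 2.25 in Monolayer. Signal was thus seen in Sphere and not above background on any iCSC or Monolayer array. Sphere was at least 22.4-fold above Monolayer (limma, adjusted p = 8.38e-07), and iCSC was at least 22.4-fold below Sphere (adjusted p = 2.69e-06). No fold is given for iCSC against Monolayer, where all arrays were under the limit.

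HAND2, the paralog needed for noradrenergic differentiation in mouse sympathetic ganglia, moved in the same directions within a far smaller range. Its arrays read 5.42 and 5.16 in iCSC, 5.91 and 6.05 in Sphere, and 5.08 and 4.99 in Monolayer, 1 of these under the limit. Sphere was 1.93-fold above Monolayer (log2 0.95 ± 0.18, limma, adjusted p = 0.00420). iCSC was 1.62-fold below Sphere (log2 -0.69 ± 0.18, adjusted p = 0.0238, range over 16 alternatives 0.0114 to 0.0869). That call was lost with no filter (0.0581), without variance moderation (0.0523), without iCSC replicate 2 (0.0607), without Sphere replicate 1 (0.0560) and without Sphere replicate 2 (0.0869). Between iCSC and Monolayer the difference was 0.25, with a 95% interval of -0.18 to 0.69, and was not called (adjusted p = 0.272). HAND2 also has a lone probe set. Its divergent antisense RNA, HAND2-AS1, chosen here after its values were seen, stood well above the limit at 9.44 ± 0.50 in iCSC, 10.73 ± 0.32 in Sphere and 8.97 ± 0.16 in Monolayer. HAND2-AS1 rose in Sphere against Monolayer by 1.75 (log2, limma, adjusted p = 0.00147) and differed between iCSC and Sphere by -1.29 (adjusted p = 0.00967, range 0.00438 to 0.102). This call did not survive omission of Sphere replicate 1 (0.0745) or of variance moderation (0.102).

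GATA3, which maintains noradrenergic identity in mouse sympathetic neurons, was measured by 3 probe sets. The leading probe set read 7.98 and 8.40 in iCSC, 12.48 and 12.13 in Sphere, and 8.68 and 8.21 in Monolayer. Sphere stood apart from both other cultures, whose arrays overlapped. Sphere was 14.6-fold above Monolayer (log2 3.86 ± 0.22, limma, adjusted p = 1.91e-05), and iCSC was 17.4-fold below Sphere (log2 -4.12 ± 0.22, adjusted p = 3.21e-05). iCSC and Monolayer differed by -0.25 (95% interval -0.78 to 0.28), which was not called (adjusted p = 0.366). The other probe sets of GATA3 passed the filter through Sphere and give no separate support. One averaged 3.31 in iCSC, 7.68 in Sphere and 3.52 in Monolayer, and the other 2.37, 7.27 and 2.56 in the same order of cultures. All iCSC and Monolayer arrays were under the limit in these 2 probe sets, whereas the leading probe set was above it on every array.

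GATA2, which acts in sympathetic neuron differentiation in chick and is also a blood stem cell factor, had a low signal throughout. Its arrays read 4.31 and 4.41 in iCSC, 6.08 and 5.95 in Sphere, and 5.95 and 5.96 in Monolayer. The Sphere and Monolayer arrays overlapped, and both iCSC arrays lay under the limit. iCSC was at least 2.02-fold below Sphere (limma, adjusted p = 4.89e-04) and at least 1.94-fold below Monolayer (adjusted p = 3.62e-04). Sphere and Monolayer differed by 0.06 (95% interval -0.34 to 0.45), a value that was not called (adjusted p = 0.794) and turned to -0.08 after renewed quantile normalization. The other 2 probe sets of GATA2 lay between 2.12 and 2.38 on all arrays and gave no information.

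ISL1, a LIM-homeodomain factor of sympathetic, sensory and motor neurons, was well above background on all arrays. It read 7.78 and 7.92 in iCSC, 10.46 and 10.19 in Sphere, and 9.04 and 8.94 in Monolayer, with no overlap between any cultures. Sphere was 2.52-fold above Monolayer (log2 1.33 ± 0.14, limma, adjusted p = 3.00e-04). iCSC was 5.56-fold below Sphere (log2 -2.48 ± 0.14, adjusted p = 3.89e-05) and 2.21-fold below Monolayer (log2 -1.14 ± 0.14, adjusted p = 7.27e-04). Of the 8 factors, ISL1 and GATA2 were the ones lower in iCSC than in the attached culture.

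INSM1, which drives neuroendocrine progenitors out of the cell cycle, was above background in both spheroid cultures and not in Monolayer. Its leading probe set read 10.01 and 10.73 in iCSC, 10.77 and 9.60 in Sphere, and 2.32 and 2.34 in Monolayer. iCSC was at least 41.4-fold above Monolayer (limma, adjusted p = 1.54e-05), and Sphere at least 36.4-fold (adjusted p = 1.26e-05), or 24.2-fold without Sphere replicate 1 and 54.7-fold without Sphere replicate 2. The iCSC and Sphere arrays overlapped and differed by 0.18, with a 95% interval of -0.80 to 1.17 (limma, adjusted p = 0.762). Differences inside that interval are compatible with these arrays. A second INSM1 probe set had the same order against Monolayer at a low level, with 4.25 and 5.19 in iCSC, 4.51 and 3.78 in Sphere, and 2.81 and 2.87 in Monolayer, and 1 array above the limit.

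TBX2, a T-box repressor with a place in the adrenergic circuit of neuroblastoma, was measured above background by 3 of its 4 probe sets. The leading one read 9.79 and 9.69 in iCSC, 9.86 and 9.55 in Sphere, and 7.94 and 7.96 in Monolayer. iCSC was 3.45-fold above Monolayer (log2 1.79 ± 0.14, limma, adjusted p = 1.00e-04), and Sphere 3.37-fold (log2 1.75 ± 0.14, adjusted p = 8.56e-05). iCSC and Sphere overlapped and differed by 0.04 (95% interval -0.30 to 0.37, adjusted p = 0.868). The further probe sets of TBX2 differed by 2.33 and 1.32 between iCSC and Monolayer and by 2.24 and 1.12 between Sphere and Monolayer, all called over the probe sets (limma, largest adjusted p = 0.00313), and by 0.09 and 0.19 between iCSC and Sphere, neither called (adjusted p = 0.750 and 0.501). The fourth lay between 2.31 and 2.34 on all arrays.

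**Figure D2:**
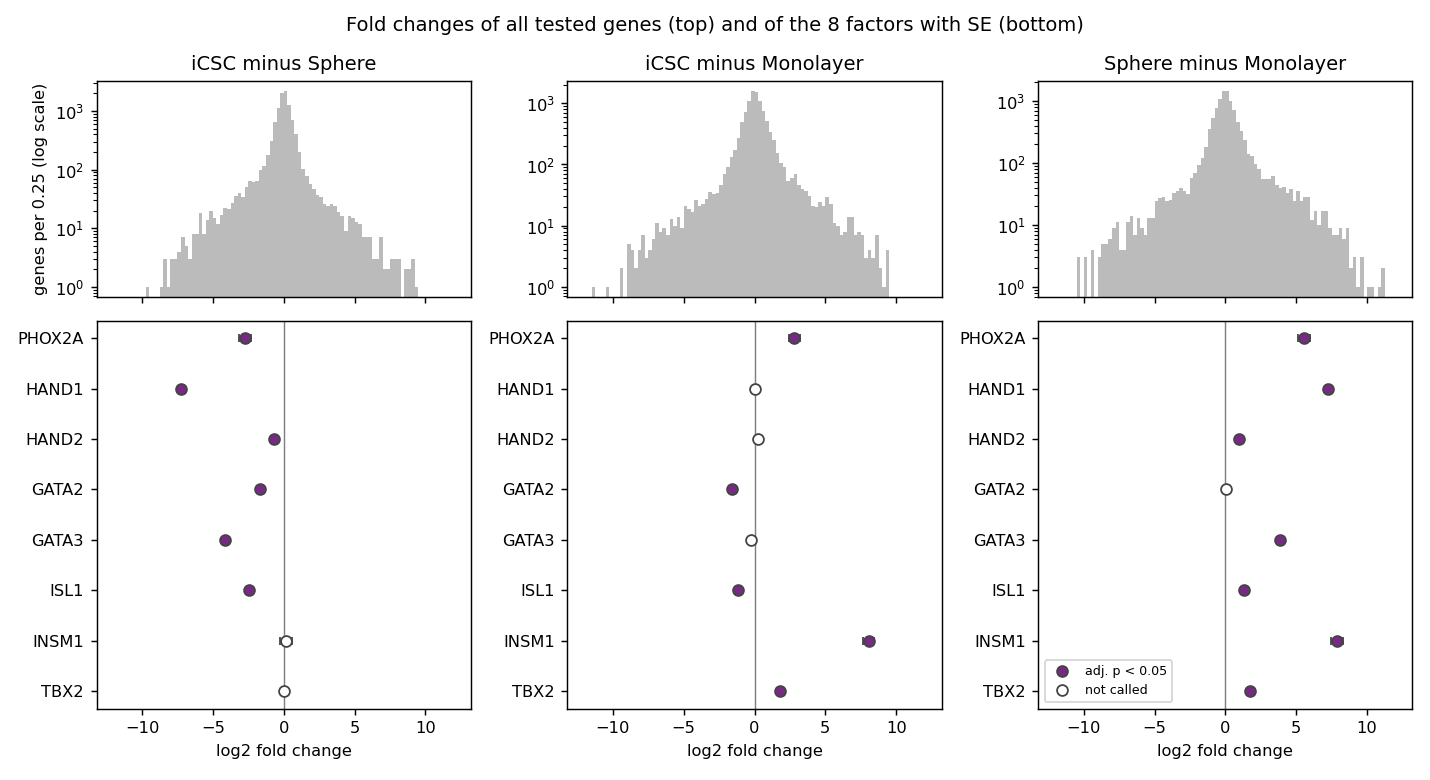
Log2 fold changes in iCSC minus Sphere, iCSC minus Monolayer and Sphere minus Monolayer. The upper histograms count all 10459 tested genes on a log axis, and the lower points are the 8 factors with their SE, filled where the adjusted p was under 0.05. In iCSC minus Sphere all filled points lie left of 0, and in Sphere minus Monolayer all lie right of it.

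Relatives from the same gene families were read beside the factors. Of 17 paralogs with a probe set, 7 were tested. In iCSC against Sphere 5 were called lower and 1 higher, where 19.2% of all genes were called lower and 19.3% higher. In Sphere against Monolayer 5 were called higher and 2 lower, where 30.0% of all genes were called higher and 29.1% lower. INSM2 and MSC had both Monolayer arrays under 5, and ISL2 both Sphere arrays. MSC had both iCSC arrays under 5 as well and passed the filter through Sphere alone. Part of the differences in these genes, and so of the counts in both comparisons, was thus set by the filter. TBX3, the T-box relative of TBX2, averaged 8.29 ± 0.24 in iCSC, 10.07 ± 0.24 in Sphere and 7.84 ± 0.15 in Monolayer. TBX3 was called lower in iCSC than in Sphere (log2 -1.78, limma, adjusted p = 6.22e-04), and higher in Sphere than in Monolayer by 2.23 (adjusted p = 1.14e-04). Whether the responses of TBX2 and TBX3 differ was not tested.

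INSM2, a zinc finger relative of INSM1, read 2.75 and 7.60 in iCSC, 12.93 and 12.66 in Sphere, and 2.78 and 2.66 in Monolayer. Sphere was at least 222-fold above Monolayer (limma, adjusted p = 9.70e-04). The iCSC arrays stood far apart, 1 of them under the limit, and the fall against Sphere (log2 -7.62 ± 1.36, adjusted p = 0.00591, range 1.58e-05 to 0.0922) was lost without Sphere replicate 1 (0.0508) and without variance moderation (0.0922). With values under 5 set to 5 that fall was 90.3-fold, or 36.7-fold without iCSC replicate 1 and 222-fold without iCSC replicate 2. ISL2, a relative of ISL1, ran the other way, with 6.09 ± 0.36 in iCSC, 3.01 ± 0.03 in Sphere and 5.43 ± 0.04 in Monolayer. iCSC was at least 2.13-fold above Sphere in ISL2 (limma, adjusted p = 1.03e-04). GATA4, a factor of heart and endoderm, followed GATA3 in direction, with 6.36 ± 0.39 in iCSC, 10.07 ± 0.08 in Sphere and 7.12 ± 0.04 in Monolayer, and fell by 3.71 (log2) in iCSC against Sphere (limma, adjusted p = 3.70e-05). GATA1, GATA5 and GATA6 did not pass the filter.

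**Figure D3:**
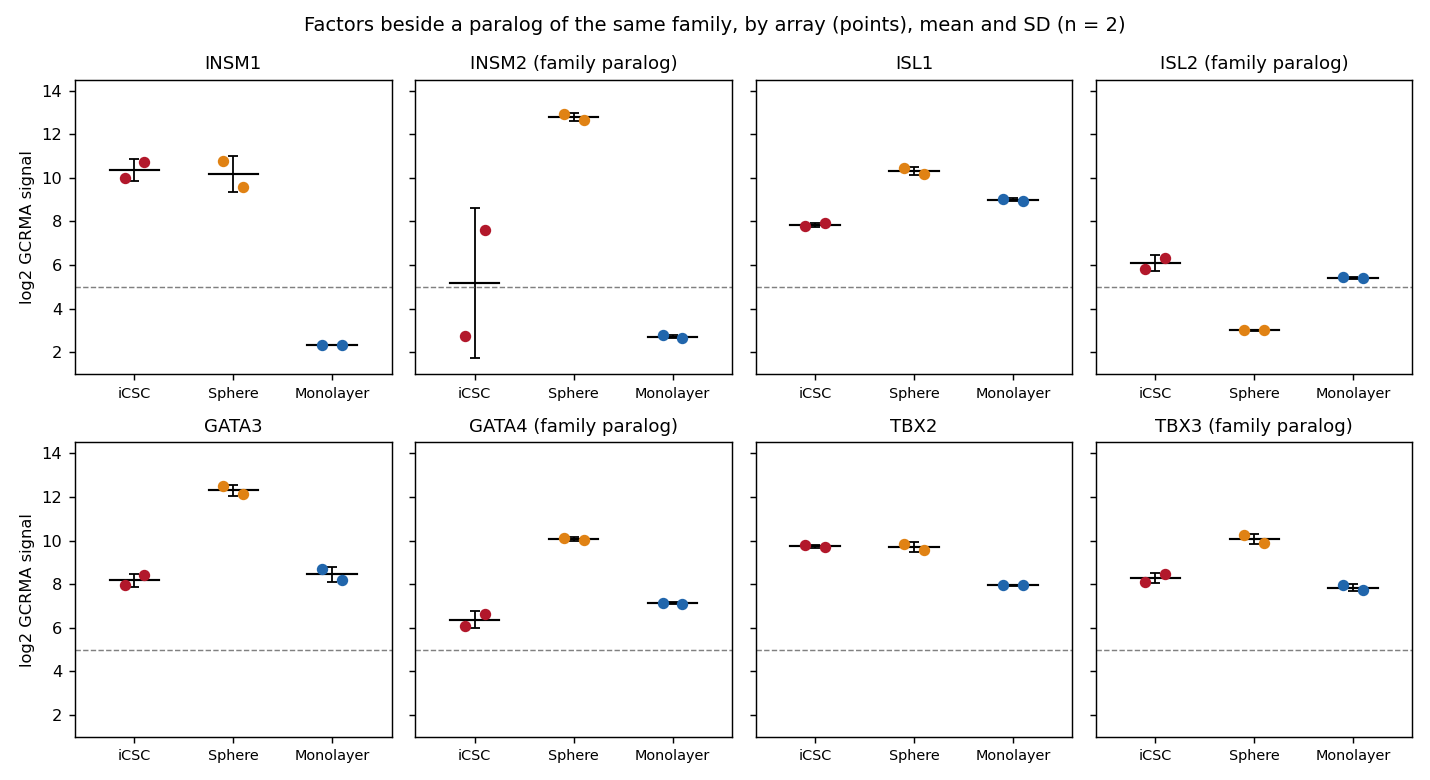
Log2 GCRMA signal of 4 factors, each beside a paralog of its family, in the iCSC, Sphere and Monolayer cultures, with arrays as points, mean and SD of 2 arrays, and the limit of 5 as a dashed line. The INSM1 arrays of iCSC and Sphere overlap while the INSM2 arrays of iCSC read 2.75 and 7.60, and ISL2 is lowest in Sphere, where ISL1 is highest.

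Of the noradrenergic genes on which PHOX2, GATA and HAND factors are known to act, those that could be tested were mostly higher in Sphere. Of 20 such genes with a probe set, 13 were tested. The other 7 were DBH, SLC6A2, SLC18A2, PNMT, NPY, ALK and CARTPT, which stayed under 5 on all 6 arrays, Sphere included. In Sphere against Monolayer 12 were called higher and none lower, with a median log2 fold change of 4.44, or 3.02 with values under 5 set to 5, where 30.0% of all genes were called higher and 29.1% lower. NEFM, DLK1, CHGB, CHRNB4, TH and SLC18A1 had both Monolayer arrays under 5 and passed the filter through the spheroid cultures, SLC18A1 through Sphere alone. Their higher values there were thus in part set by the filter, and these genes give no separate support. In iCSC against Sphere 8 were called lower and none higher, with a median of -1.70, or -1.67 with that floor, where 19.2% of all genes were called lower and 19.3% higher. In iCSC against Monolayer 9 were called higher and 1 lower, with a median of 3.37, or 2.11 with that floor, where 29.0% of all genes were called higher and 26.6% lower. TH averaged 6.07 ± 0.17 in iCSC and 7.01 ± 0.94 in Sphere, against Monolayer at least 2.09-fold higher in iCSC (limma, adjusted p = 5.02e-04) and at least 4.02-fold higher in Sphere (1.47e-04), or 2.54-fold without Sphere replicate 1 and 6.37-fold without Sphere replicate 2. The call for TH in iCSC was lost with values under 5 set to 5 (0.0682, range 1.13e-04 to 0.0682), and TH did not pass between iCSC and Sphere (adjusted p = 0.117) except without Sphere replicate 2 (0.00623). DDC, the next enzyme of the pathway, averaged 10.61 ± 0.49 in iCSC, 12.97 ± 0.17 in Sphere and 6.82 ± 0.91 in Monolayer. CHGB, a granin of dense-core vesicles, averaged 7.11 ± 1.40 in iCSC, 12.39 ± 0.51 in Sphere and 3.74 ± 0.56 in Monolayer. DLK1 averaged 12.22 ± 0.38 in iCSC, 13.92 ± 0.07 in Sphere and 2.81 ± 0.24 in Monolayer. CHGA averaged 12.30 ± 0.02, 13.98 ± 0.07 and 4.94 ± 0.08 in the same order of cultures. NEFM averaged 8.25 ± 0.10 in iCSC and 10.40 ± 0.36 in Sphere. DLK1, CHGA and NEFM fell less in iCSC against Sphere than CHGB did (log2 -1.70, -1.67 and -2.15, against -5.27). SLC18A1, a vesicular amine transporter outside the rule for named genes and chosen after its values were seen, had a course like that of HAND1, with 2.31 ± 0.03 in iCSC, 6.05 ± 0.29 in Sphere and 2.35 ± 0.02 in Monolayer.

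Of 21 other transcription factors of the adrenergic state with a probe set, 15 were tested. In iCSC against Sphere 8 were called lower and 1 higher, with a median of -0.59, where 19.2% of all genes were called lower and 19.3% higher and their median was 0.01. In iCSC against Monolayer 9 were called higher and 1 lower, with a median of 0.67, or 0.53 with values under 5 set to 5. Over all genes 29.0% were called higher there and 26.6% lower, with a median of 0.02. In Sphere against Monolayer 10 were called higher and 2 lower, with a median of 1.99, where 30.0% of all genes were called higher and 29.1% lower and their median was 0.01. DACH1, SATB1, PROX1 and TFAP2B had both Monolayer arrays under 5 and passed the filter through the spheroid cultures. Their higher values there were thus in part set by the filter. TFAP2B, a neural crest AP-2 factor, averaged 5.52 ± 0.76 in iCSC, 11.12 ± 0.30 in Sphere and 2.42 ± 0.04 in Monolayer, and fell in iCSC against Sphere by 5.60 (log2, limma, adjusted p = 6.68e-05). PROX1, a homeodomain factor of neural progenitors, averaged 6.44 ± 0.68 in iCSC, 9.39 ± 0.45 in Sphere and 3.62 ± 0.04 in Monolayer, and its order of cultures was that of PHOX2A. DACH1, a transcriptional corepressor, was on the other hand at 10.96 ± 0.20 in iCSC, 10.74 ± 0.22 in Sphere and 2.45 ± 0.25 in Monolayer, the course of INSM1.

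Transcription factors of the mesenchymal state did not show a common direction. Of 20 tested, 6 were called higher and 5 lower in iCSC against Sphere, where 19.3% of all genes were called higher and 19.2% lower, and 3 were called higher without variance moderation. In Sphere against Monolayer 7 were called higher and 9 lower, where 30.0% of all genes were called higher and 29.1% lower. The median in iCSC against Sphere was -0.03, or 0.02 with values under 5 set to 5. In Sphere against Monolayer it was -0.02, or -1.15 over the 18 genes left without x_at and s_at probe sets. FOSL1, an AP-1 subunit, averaged 3.75 ± 0.38 in iCSC, 4.01 ± 0.81 in Sphere and 9.63 ± 0.09 in Monolayer. It was at least 24.7-fold lower in either spheroid culture than attached (limma, adjusted p = 5.15e-05 in iCSC and 4.49e-05 in Sphere). FOSL1 passed the filter through Monolayer alone, so these differences were in part set by the filter. SIX4, a homeodomain factor, averaged 8.27 ± 0.09 in iCSC, 4.14 ± 0.09 in Sphere and 8.95 ± 0.18 in Monolayer, with iCSC exceeding Sphere at least 9.67-fold (limma, adjusted p = 9.97e-06). FOSL1 and SIX4 are among the 9 lower in Sphere than in Monolayer. PRRX1, chosen after its values were seen, is among the 7 higher there (log2 4.42, limma, adjusted p = 7.98e-06). It averaged 10.28 ± 0.25 in iCSC, 11.95 ± 0.11 in Sphere and 7.53 ± 0.38 in Monolayer.

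**Figure D4:**
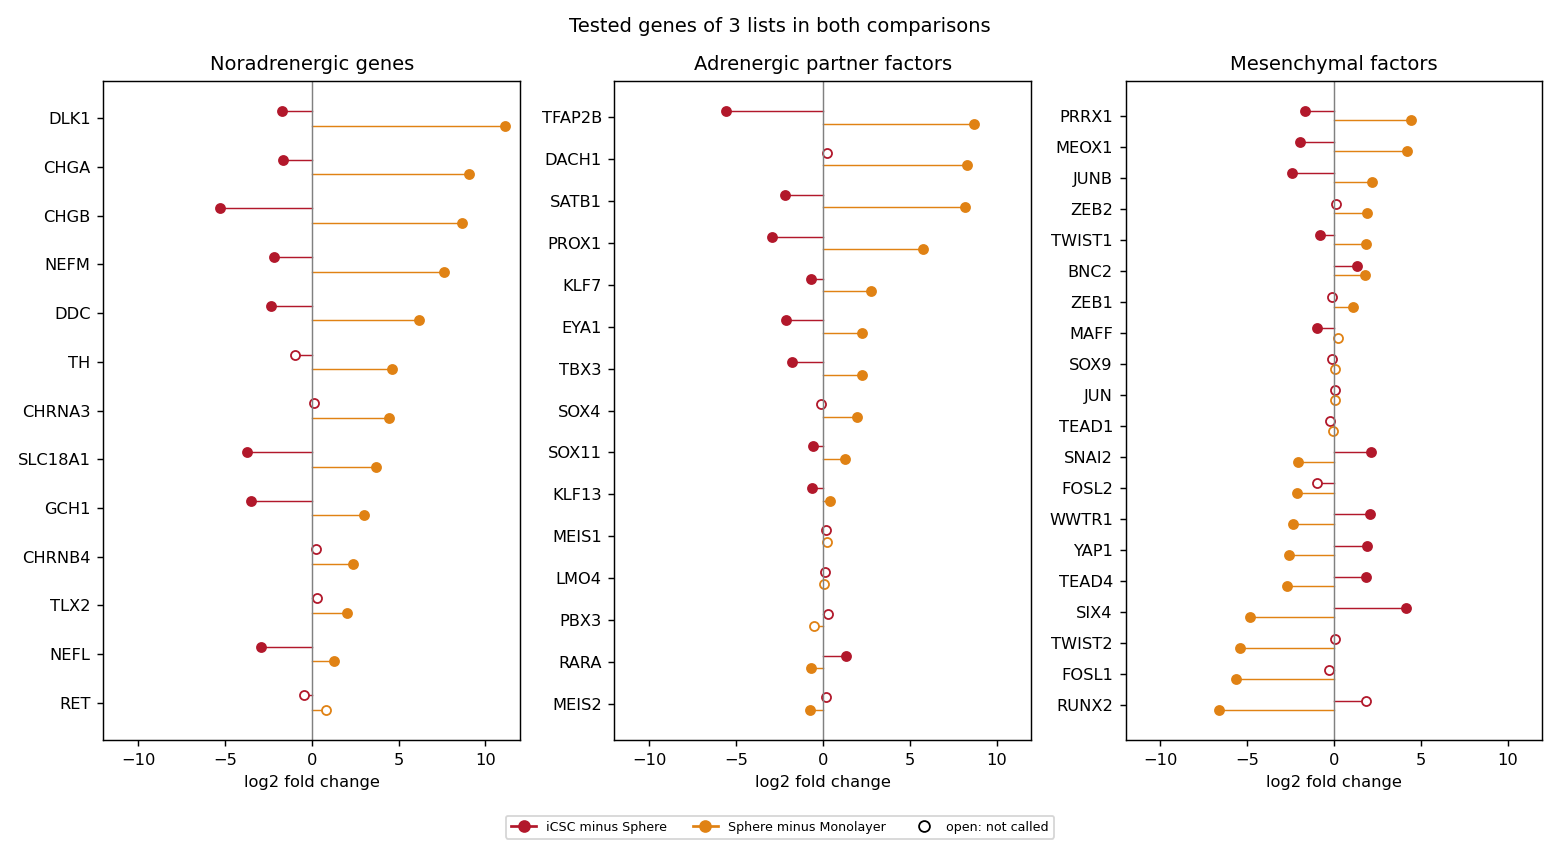
Log2 fold changes of the tested noradrenergic genes, adrenergic partner factors and mesenchymal factors, in iCSC minus Sphere and in Sphere minus Monolayer, comparisons that share the Sphere arrays. Filled points were called at an adjusted p under 0.05. All filled points of the noradrenergic genes lie left of 0 in iCSC minus Sphere and right of 0 in Sphere minus Monolayer.

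For each factor the 3 tested genes with the most similar course were taken, by the root mean square difference of mean-centred log2 values over the 6 arrays. With 2 arrays in each of 3 cultures many genes lie close, and this is a description. HAND1 was closest to SCN3A, a sodium channel subunit (0.05), C3, a complement component (0.11), and LRRC55 (0.16). PHOX2A was closest to CRMP1 (0.19), RIIAD1 (0.27) and BASP1 (0.30), of which CRMP1 and BASP1 are growth cone proteins. GATA3 had H2BW4P, ULK2 and GSAP as neighbours (0.21, 0.22 and 0.22), and ISL1 had DOK4, MCF2L and CTSO (0.10, 0.13 and 0.16). INSM1 had the most distant neighbours, DACH1 (0.36), ALDH2 (0.42) and VANGL2 (0.50). TBX2 was closest to DDX5, COPS8 and C16orf46 (0.08, 0.09 and 0.11), HAND2 to MINDY3, KAT6B and G3BP2 (0.08, 0.09 and 0.09), and GATA2 to P2RX4, BAG5 and MYD88 (0.07, 0.13 and 0.15). Among the 8 factors themselves, the closest pair was GATA2 and ISL1 at 0.53 and the most distant GATA2 and INSM1 at 4.19, while the paralogs HAND1 and HAND2 lay 3.04 apart and GATA2 and GATA3 1.59.

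Several of these factors are also used outside the sympathoadrenal lineage, so markers of other cell types were read on the same arrays. Trophoblast cells express GATA2, GATA3 and HAND1. Of 6 trophoblast markers 3 reached the limit on any array, TFAP2C, KRT7 and HLA-G, while CGA, ELF5 and GCM1 did not, and the summed level of the list (log2 of the summed signals) was 9.19 to 9.23 in iCSC, 9.97 to 10.10 in Sphere and 9.68 to 9.91 in Monolayer. None of 5 erythroid and megakaryocyte markers reached it, and their sum was 4.81 to 4.92 in iCSC, 5.10 to 5.17 in Sphere and 4.97 to 5.00 in Monolayer. Of 6 Schwann cell and glial markers 1 did, ERBB3, with SOX10 under the limit, and the sum was 7.36 to 7.93 in iCSC, 5.65 to 5.91 in Sphere and 6.05 to 6.09 in Monolayer. Of 7 leukocyte markers PTPRC alone reached the limit, with sums of 5.29 in iCSC, 12.43 to 12.53 in Sphere and 11.66 to 11.86 in Monolayer, while CD14, CD3D, SPI1 and TYROBP stayed under it on all arrays. Of 5 chromaffin cell markers 4 reached it, with PNMT under the limit, and their sum was 12.51 to 12.69 in iCSC, 14.28 to 14.53 in Sphere and 5.81 to 5.93 in Monolayer. Among them PENK, the enkephalin precursor, went the other way and was chosen after its values were seen. It averaged 9.88 ± 0.50 in iCSC, 2.11 ± 0.01 in Sphere and 2.10 ± 0.01 in Monolayer. In iCSC it was at least 29.4-fold above either (limma, adjusted p = 4.44e-06 against Sphere and 2.74e-06 against Monolayer). PENK passed the filter through iCSC alone, so these differences were in part set by the filter and give no separate support. Of 6 endothelial markers 2 reached it, PECAM1 and TEK, with sums of 5.98 to 6.17 in iCSC, 6.41 to 6.57 in Sphere and 7.96 to 8.08 in Monolayer, and CDH5 and VWF did not. Of 4 melanocyte markers 2 did, MITF and PMEL, with sums of 7.06 to 7.12 in iCSC, 8.93 to 9.19 in Sphere and 7.95 to 7.96 in Monolayer. The part of any such cells in the results was not tested.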

How the data were processed

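Affymetrix expression arrays of 3 cultures, 2 each, were used. The authors deposited for each probe set 1 log2 signal per array, computed with GCRMA per the submitters' processing notes, which also name Partek. For versions and settings, the sources used here give nothing. GCRMA draws unexpressed probe sets into a narrow low band, so folds from that band are given as bounds at log2 5. The array medians lay between 2.78 and 2.83. The number of arrays limits the precision.

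Probe sets were named by the platform annotation, with symbols updated by Entrez identifier (41091 with 1 symbol). Those at log2 5 or above on at least 2 arrays entered, and per gene the one with the highest mean was used (10459 genes). limma 3.58.1 in R 4.3.3 fitted a mean per culture over all 6 arrays, with empirical Bayes, a variance trend, two-sided contrasts and Benjamini-Hochberg adjustment. The fit was tested on simulated data, where it recovered folds without bias and missed part of the changed genes; the criterion for passing was loosened after the first outcome was seen. The factors, gene lists and tests were chosen with earlier results of these data known. The rule for named genes took the 8 factors, their 3 nearest genes each, up to 4 called genes with the largest change per list, and TH, DBH, DDC and TBX3. The text names part of them, and PTPRC and the other marker genes come from the marker lists. Alternatives were filters, a floor, normalizations, probe set rules, variance settings, a replicate block and leaving out each array. matplotlib 3.10.9 (Python 3.11.15) drew the figures.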

Additional observations from a re-analysis of the deposited data

How the results depend on the processing

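The calls of the 8 factors were recomputed under 17 alternatives. Of 399 values, 384 kept their direction and side of the threshold, 6 lost their call and 9 changed sign without being called. The 6 were HAND2 (5) and PHOX2A (1) in iCSC against Sphere, given in the report. The sign changes concerned uncalled differences. In iCSC against Sphere, TBX2 ranged from -0.12 to 0.19 and INSM1 from -0.40 to 0.77 when an array was left out. HAND1 in iCSC against Monolayer was -0.04 after subtraction of the median and -0.01 to 0.02 without an array, and GATA2 in Sphere against Monolayer was -0.08 after renewed quantile normalization and -0.01 to 0.12 without an array. The cause was not tested. Over all genes, 4022 were called in iCSC against Sphere, but 2281 without variance moderation and 2574 to 3883 when an array was left out, lowest without Sphere replicate 1. The number of factors called stayed within 1.5 times its reported value in every setting, at 4 to 6 in iCSC against Sphere, 4 to 5 in iCSC against Monolayer and 6 to 7 in Sphere against Monolayer. The stricter filter at log2 7 tested 6 of the 8. With the replicate number as a block, 4106, 5891 and 6219 genes were called in iCSC against Sphere, iCSC against Monolayer and Sphere against Monolayer, and no factor changed its call. Same-numbered arrays deviated together at r = 0.17 (iCSC and Sphere), -0.05 (iCSC and Monolayer) and 0.02 (Sphere and Monolayer), so no strong shared shift was seen. Such values cannot tell whether same-numbered arrays were handled together, and the labels do not say. With x_at and s_at probe sets left out, 5 of 8 tested noradrenergic genes and 5 of 10 tested partner factors were called lower in iCSC against Sphere.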

Other observations

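LDB2, which bridges LIM-homeodomain factors such as ISL1, averaged 8.31 ± 0.43 in iCSC, 3.53 ± 0.06 in Sphere and 3.14 ± 0.00 in Monolayer. In iCSC it exceeded Sphere at least 9.94-fold (limma, adjusted p = 2.27e-05). LDB2 passed the filter through iCSC alone, so this difference was in part set by the filter. LMO2, a LIM-only partner of GATA factors, averaged 8.67 ± 0.04 in iCSC, 5.21 ± 1.07 in Sphere and 4.99 ± 0.46 in Monolayer (log2 3.47 in iCSC against Sphere, adjusted p = 0.00215, range 8.15e-04 to 0.0580, lost without variance moderation, and 2.71 without Sphere replicate 1 and 4.23 without Sphere replicate 2). ZFPM2, a zinc finger cofactor of GATA factors, averaged 6.30 ± 1.55 in iCSC, 10.62 ± 0.22 in Sphere and 10.97 ± 0.23 in Monolayer (log2 -4.31 in iCSC against Sphere, adjusted p = 0.00268, range 4.46e-05 to 0.0669, lost without variance moderation, and -3.21 without iCSC replicate 1 and -5.41 without iCSC replicate 2). Of 14 tested partners and cofactors, 5 were called higher and 2 lower in iCSC against Sphere, where 19.3% of all genes were called higher and 19.2% lower. These counts were 3 and 1 without variance moderation and 4 and 1 when either Sphere array was left out. In Sphere against Monolayer 3 were called higher and 2 lower, where 30.0% of all genes were called higher and 29.1% lower. There 5 were called higher when either iCSC array was left out, and 1 was called lower when any Sphere or Monolayer array was left out.

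BMP signals induce the factors in the embryo. Of 15 tested genes of BMP signalling, 5 were called higher and 2 lower in iCSC against Sphere, where 38.5% of all genes were called, and 6 higher and 6 lower in Sphere against Monolayer, where 59.0% of all genes were called. Without variance moderation 1 was called higher in iCSC against Sphere, and without Sphere replicate 1 and replicate 2 it was 3 and 2. NOG, a secreted BMP antagonist, averaged 2.39 ± 0.02 in iCSC, 2.40 ± 0.02 in Sphere and 10.27 ± 0.15 in Monolayer. SMAD9, a transducer of BMP signals, averaged 10.91 ± 0.51 in iCSC, 10.13 ± 0.34 in Sphere and 3.36 ± 0.23 in Monolayer. NOG and FST passed the filter through Monolayer alone, and SMAD9, BMP7 and BMPR1B through the spheroid cultures. Their differences between Monolayer and the spheroid cultures were thus in part set by the filter.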
